A study of Mus musculus with 24 samples.

Results

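The comparison described here set liver RNA of weanling Cyp1b1-null mice against that of wild-type weanlings, both from dams fed without vitamin A. The arrays were taken from the labels: PN21, vitamin A deficient, and either wild type (3 arrays) or Cyp1b1-null but not the separate R-Cyp1b1-null line (2 arrays), which gave 5 of the 24 arrays of the series. All 5 arrays carried total RNA of male livers at postnatal day 21. Their dams had been moved at embryonic day 4.5 from a breeder chow to a defined diet lacking vitamin A, and the diet went on until the pups were killed. The wild-type mice were labelled C57Bl/6J, while the strain label of the null mice was the genotype itself, so their background strain and the deleted part of Cyp1b1 are not given in the sources used here. Each array held RNA of 2 mice, except wild type deficient array 3, which held RNA of 1 mouse. The submitters' 9 comparisons set each deficient group against its own genotype, and do not include the contrast between genotypes on the deficient diet. Other PN21 groups used for reference were wild type on the sufficient diet (3 arrays of 1 pool of 4 mice), Cyp1b1-null on the sufficient diet (2 arrays, each of 2 mice) and R-Cyp1b1-null on the deficient diet (3 arrays, each of 2 mice).

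CYP1B1 is a cytochrome P450 that oxidises oestradiol, polycyclic hydrocarbons and retinol, and it is found mainly outside hepatocytes. The liver is the main store of vitamin A: stellate cells hold retinyl esters made by LRAT, hepatocytes export retinol bound to RBP4, and retinoic acid induces its own breakdown through CYP26A1 and acts on RAR and RXR nuclear receptors. The weanling liver also completes the switch from fetal to adult expression, in which Afp, Igf2 and H19 are silenced, and carries much of the body's sterol synthesis and iron sensing.

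Signals were put on a log2 scale with the 75th percentile of every array at 0, and a difference is the null mean minus the wild-type mean on that log2 scale, with its standard error from limma. A gene was called when its limma p-value, adjusted over all genes by the Benjamini-Hochberg method, was under 0.05. The livers carried hepatocyte RNA on every array: all 29 measured genes of the adult hepatocyte list were well above background on all 5 arrays. Wild type deficient array 3 stood apart. Its median correlation with the other PN21 arrays was 0.781, against 0.919 to 0.942 for the other 4 arrays compared here, and its correlation with the null deficient arrays was 0.66 and 0.649. The median of its hepatocyte genes was 4.73, against 6.69 and 6.88 on wild type deficient arrays 1 and 2, and 7.44 and 7.25 on the null arrays. Results are therefore given with and without it. Both null arrays lay on slide 4 and were scanned on the same day, while the wild-type arrays lay on slides 1, 2 and 3 and were scanned on the other days, so slide, scan day and genotype cannot be told apart. The p-values rest on the spread within the groups of the series. The PN21 wild-type sufficient pool adds none, since its 3 arrays were averaged into 1 sample. The groups include array 3 of R-Cyp1b1-null on the sufficient diet, with a median correlation of 0.494. For groups of 2 and 3 arrays of pooled or single mice the p-values say nothing of spread beyond such samples.

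The Cyp1b1 probe with the higher signal read higher in the null livers. Its values were -3.07, -4.03 and -1.23 on the wild-type arrays, of which 2 were well above background, and -0.87 and 0.81 on the null arrays. The groups did not overlap, with a difference of 2.75 ± 0.69 (n = 2 and 3, limma adjusted p = 0.00921), and of 3.52 without array 3 (adjusted p = 0.00141). The second Cyp1b1 probe went the other way, at -1.54, -2.27 and 0.5 in wild type against -4.31 and -4.09 in null, and the mean of both probes differed by -0.18. Since the deleted part is unknown, neither probe checks the deletion.

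Across the transcriptome, 3811 of 20533 genes (18.6%) were called, and with 75th-percentile scaling the calls ran almost entirely one way: 3738 genes (18.2%) were lower in the null livers and 73 (0.356%) were higher. Without wild type deficient array 3 the counts were 2602 lower (12.7%) and 21 higher (0.102%), and leaving out null array 1 or 2 left 2434 and 2091 calls. The genes that were lower were dim ones. When genes were split by mean signal into quintiles of equal size, 2101 of the dimmest (51.2%) and 1289 of the next (31.4%) were called lower, against 309 (7.52%), 37 (0.901%) and 2 (0.0487%) in the 3 brighter quintiles. Of the lower calls, 59.6% had no null array well above background, and the 10th percentile of the signal was -5.74 and -5.97 on the null deficient arrays against -3.18, -3.67 and -2.99 on the wild-type arrays. The null sufficient arrays, on the same slide as the null deficient ones, had 10th percentiles of -5.78 and -5.99. Dim genes lay lower in null on the sufficient diet too, where the dimmest quintile had a median difference of -1.58, beside -2.6 on the deficient diet. The 73 higher calls were spread over all quintiles (11, 13, 18, 20 and 11 from dim to bright), and 44 of them were well above background on all 5 arrays.

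Quantile normalization, which gives all arrays the same distribution of signals, changed the split: it called 630 genes higher (3.07%) and 473 lower (2.3%), so that 57.1% of the calls were higher, against 1.92% with 75th-percentile scaling. These higher calls were mostly of dim genes, with 482, 120, 27, 0 and 1 from the dimmest to the brightest quintile. Of 358 olfactory receptor genes, 72 were called higher and 16 lower after quantile normalization, beside 3.07% and 2.3% of all genes. With 75th-percentile scaling 4 were called higher and 75 lower (20.9%), beside 0.356% and 18.2% of all genes. Their median difference was -0.43 with 75th-percentile scaling and 1.33 after quantile normalization. Quantile normalization without both arrays of low correlation gave 1396 higher and 1972 lower calls (41.4% higher), and array weights gave 4884 and 8741 (35.8% higher). Quantile normalization of all arrays moved the median of all genes from -0.04 to 0.22, and 29 of its higher and 465 of its lower calls were shared with the first scaling. With normexp background correction before quantile normalization no gene was called by limma (2414 genes had an unadjusted p under 0.05, against 5629 with 75th-percentile scaling). The median difference of the dimmest quintile was -2.6 with all arrays, -2.11 without array 3 and -0.28 after quantile normalization. That of the brightest quintile was 0.67, 0.22 and 0.04 in the same order, and the medians of gene lists given below are to be read beside these.

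**Figure D1:**
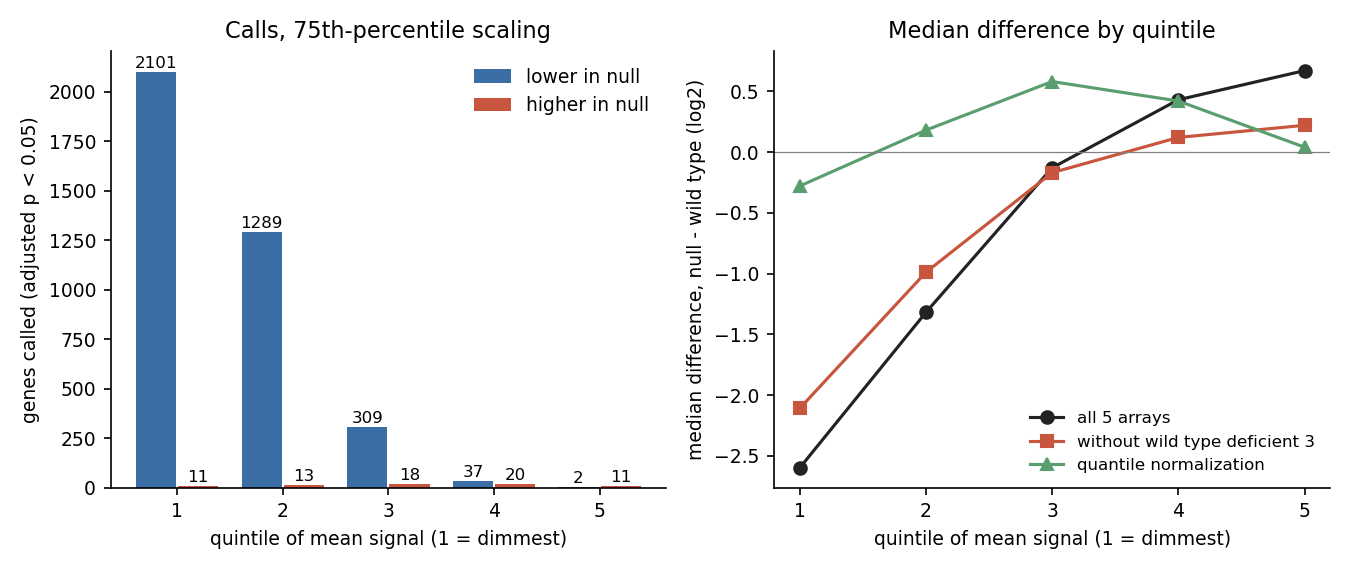
Left, numbers of genes called lower (blue) and higher (red) in null than in wild-type deficient liver, by quintile of the mean log2 signal, from the dimmest (1) to the brightest (5). Right, the median difference (null minus wild type, log2) of each quintile with all 5 arrays, without wild type deficient array 3, and after quantile normalization. The lower calls fall from 2101 in the dimmest quintile to 2 in the brightest.

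A small set of genes was called with all arrays, without array 3, without both arrays of low correlation in the series, and after quantile normalization. Of 51 named genes that were called higher without overlap between the groups, 10 met all of these, and of 2467 that were called lower, 281 did, including 6 in the 2 brightest quintiles. The 10 higher genes and 6 bright lower genes were chosen for this stability after their values were seen. Leaving out a null array was not among these settings. With normexp background correction before quantile normalization no gene was called by limma. Tax1bp1, an autophagy adaptor that restrains inflammatory signalling, was the brightest of the 10: its values were 1.79, 1.8 and 1.25 in wild type against 3.41 and 3.13 in null, a rise of 1.65 ± 0.42 (limma adjusted p = 0.00963). The null sufficient arrays, at 3.05 and 3.1, also lay above the 3 wild-type deficient arrays. Pabpc2, a poly(A)-binding protein gene, rose from -0.83, -1.49 and -0.97 to 0.48 and 0.13 (difference 1.4 ± 0.41). Ect2, which encodes the guanine nucleotide exchange factor that drives cytokinesis, rose by 2.51 ± 0.65. Its wild-type values were -2.8, -5.17 and -4.57, with 1 array well above background, and its null values were -1.97 and -1.37, and a second Ect2 probe differed by -0.24. Cep72, a centrosomal protein gene, and Sinhcaf, a subunit of the Sin3 corepressor complex, were well above background on both null arrays and on no wild-type array. So were the olfactory receptor genes Olfr470, Olfr1309 and Olfr608, whose null values lay between -3.94 and -3.45. The lowest signal well above background was -5.38 and -5.49 on the null arrays, but -3.81, -3.14 and -3.57 on the wild-type arrays. A signal between these levels could pass on the null arrays alone, so such a split in detection does not by itself show a difference. Cyp1b1 and Ifi202b, described elsewhere, complete the 10.

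Of the 6 bright genes called lower under all of these settings, 5 shared one pattern over the arrays, with wild-type array 2 the highest and null array 2 the lowest. Cdcp1, a transmembrane substrate of Src kinases, read 2.37, 3.28 and 1.19 in wild type against -0.17 and -1.79 in null, a fall of 3.26 on the log2 scale (SE 0.85, limma adjusted p = 0.0116). Anxa7, a calcium-dependent membrane-binding annexin, read 2.51, 3.3 and 1.12 against 0.11 and -1.59. Trim55, a muscle ubiquitin ligase gene, and Pdpk1, the kinase that activates AKT, fell by 2.9 and 2.37. In these 4 genes the difference on the sufficient diet lay between -1.52 and -1.15. Ccdc88c, a Dishevelled-binding regulator of Wnt signalling, was the fifth gene with that pattern, at 0.48, 0.86 and 0.24 against -0.5 and -0.83. The remaining gene was the uncharacterised 5430405H02Rik, at 1.47, 1.45 and 0.71 against 0.23 and -0.48.

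**Figure D2:**
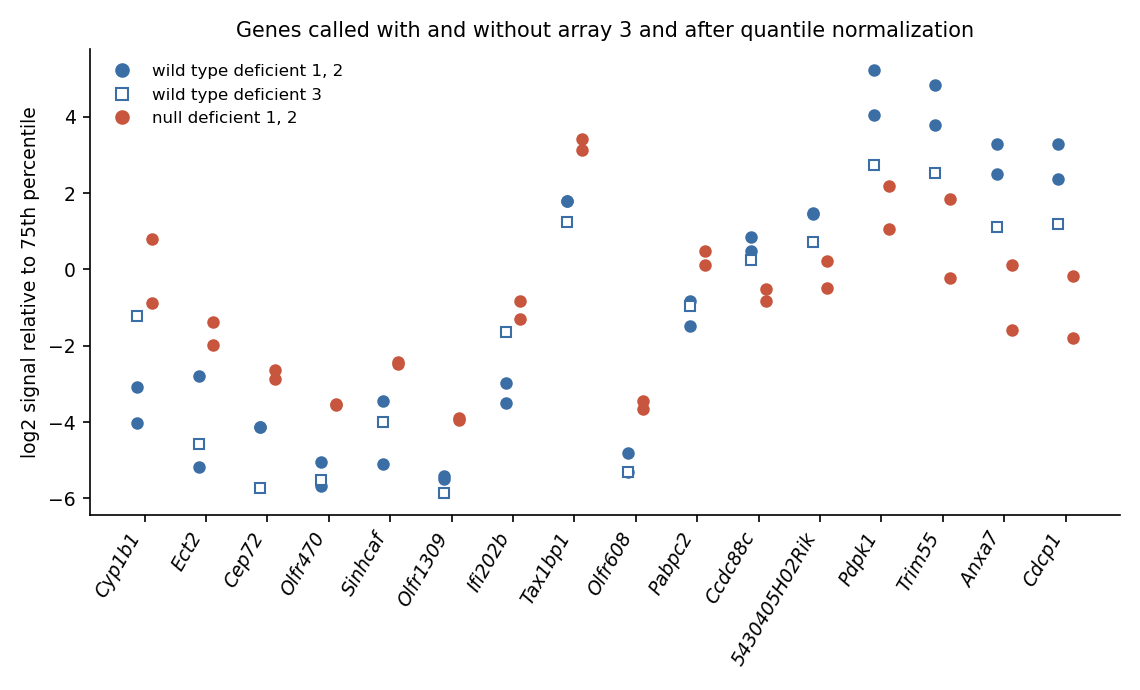
Log2 signal relative to the 75th percentile of the array for the 10 genes called higher and the 6 genes of the 2 brightest quintiles called lower under all 4 settings. Blue marks are wild type deficient arrays (open squares, array 3) and red circles are null deficient arrays. The 16 genes were chosen among those whose groups do not overlap, so the lack of overlap follows from the choice.

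Among the bright genes, 31 of the 8213 in the 2 brightest quintiles were called higher (0.377%) and 39 lower (0.475%). When only those genes were tested and adjusted, none was called by limma (325 had an unadjusted p under 0.05). The following bright genes were picked from the calls after their values were seen. Pam, which amidates peptide hormones, rose from -0.13, -0.23 and -1 to 1.23 and 1.4 (difference 1.77 ± 0.39, limma adjusted p = 0.00385, and 0.0189 without array 3). Pa2g4, a growth-regulating RNA-binding protein gene, rose from 0.93, 0.9 and -0.06 to 2.38 and 2.48 (1.83 ± 0.45, adjusted p = 0.00799, and 0.0402 without array 3). Ednrb, the endothelin B receptor gene, rose from 0.92, 0.68 and 0.38 to 1.98 and 2.32 (1.49 ± 0.39). Akt2, the insulin-responsive kinase of liver, was called higher at 1.69 ± 0.5 and lost that call without array 3, where it differed by 1.2 (adjusted p = 0.124). Maz, a zinc-finger transcription factor gene, fell from 1.5, 0.51 and 2.5 to -1.13 and -1.3 (difference -2.72 ± 0.68), and Meg3, a maternally expressed non-coding RNA, from 0.12, -0.01 and 0.47 to -1.18 and -1.57 (difference -1.57 ± 0.47, adjusted p = 0.0253, and 0.0885 without array 3). None of Pam, Pa2g4, Ednrb, Akt2, Maz and Meg3 was called after quantile normalization, where each kept its direction.

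The largest falls were in genes well above background on every wild-type deficient array with a value and on no null deficient array. Their signal varied widely between arrays of the same RNA. The 3 arrays of the wild-type sufficient pool read 1.17, -1.32 and -2.81 for Hdgfl1, and 0.41, -1.88 and -4.63 for Zfp735. The cause of that spread was not tested. Hdgfl1 read 0.55, -0.38 and 1.68 in wild type against -7.58 and -7.3 in null, at least 66.1-fold lower (limma adjusted p = 0.00016). Adcy8, a calcium-stimulated adenylyl cyclase of neurons, was at least 56.8-fold lower, Pou3f2, a neural transcription factor gene, at least 63.5-fold lower, and the presynaptic Unc13c at least 75.4-fold lower. Without array 3, the highest wild-type array in all 4 genes, the bounds were 45.7-fold for Hdgfl1, 42.1-fold for Adcy8, 37.7-fold for Pou3f2 and 47.4-fold for Unc13c. For such bounds the dim group was set at the lowest signal well above background on each of its arrays, or at its own signal where that was higher. The other group was the mean of all its arrays, so where some were not well above background the bound is less sure. All bounds refer to 75th-percentile scaling and need not hold with another scaling. Olfr836, Zfp735, Slitrk3 and Il25, the gene of a type 2 cytokine, completed the 8 largest falls, with differences of -7.64 to -7.48, and Il25 had no value on array 3. After quantile normalization, 7 of these 8 were called and Il25 was not (adjusted p = 0.0588). All 8 were lower in null on the sufficient diet as well, by -7.27 to -4.81, where the null arrays shared a slide with those described here. R-Cyp1b1-null livers on the deficient diet, whose arrays lay on slides 1 to 3, differed from the same wild-type arrays by -2.47 to -1.74 in these 8 genes.

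Among called genes with a symbol whose groups did not overlap, the largest rises after Hamp and Cyp1b1 were Ect2, Fras1, Afp, Armh4, Nxt2 and Crk. Fras1, an extracellular matrix protein gene of basement membranes, was at least 2.43-fold higher in null, Nxt2, an mRNA export factor gene, at least 3.09-fold and Armh4 at least 1.91-fold, each well above background on both null arrays and on no wild-type array. Crk, an adaptor of tyrosine kinase signalling, read 2.37, 2.11 and 0.74 against 3.69 and 3.88 (difference 2.05 ± 0.66, limma adjusted p = 0.0384), and 1.54 without array 3 (adjusted p = 0.181). Fras1, Armh4 and Nxt2 were also not called without array 3, with adjusted p of 0.108 to 0.134, while Fras1 and Armh4 were called after quantile normalization and Nxt2 was not (adjusted p = 0.0707). For Crk the other 2 probes differed by 0.38 and -0.31.

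Hamp, which encodes hepcidin, the hormone that blocks iron export from gut and macrophages, showed the largest rise. It was not well above background on any wild-type deficient array (-4.1, -4.98 and -5.5) and was well above it on both null arrays (0.27 and -0.71). Null livers were thus at least 9.73-fold higher, with a measured difference of 4.64 ± 1.53 (limma adjusted p = 0.0445). The order of genotypes was the opposite on the sufficient diet, where the 3 arrays of the wild-type pool read 3.32, 3.73 and 5.23 and the null arrays -3.89 and -4.65 (difference -8.36 ± 2.05, adjusted p = 0.0552). The difference between the 2 effects was 13 ± 2.56 (limma adjusted p = 0.989), which did not pass the threshold over all genes. R-Cyp1b1-null deficient livers read -0.63, -0.54 and 5.67, so Hamp also varied widely within a group. The deficient call was lost without array 3 (difference 4.32, adjusted p = 0.14) and after quantile normalization (5.67, adjusted p = 0.089).

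Hamp2, the neighbouring duplicate of Hamp, followed the same order without being called. Its values were 1.33, 0.23 and -1.29 in wild type against 3.22 and 3.41 in null on the deficient diet, a difference of 3.23 ± 1.33 (limma adjusted p = 0.117). On the sufficient diet the wild-type pool averaged 6.15 and the null arrays 1.71 and 1.07. The genes are near-identical copies, so their probes may share signal. The 250 bases before each start are shown because the genes gave the same order of groups, from RefSeq on build GRCm38.p6, both on the minus strand and written 5′ to 3′ along the gene, at chr7:30944030-30944279 for Hamp and chr7:30924182-30924431 for Hamp2. Capitals mark GGCGCC, the letters of the element through which bone morphogenetic proteins act on hepcidin, and TTCTTGGAA, the letters of its STAT element, searched on both strands.
Hamp: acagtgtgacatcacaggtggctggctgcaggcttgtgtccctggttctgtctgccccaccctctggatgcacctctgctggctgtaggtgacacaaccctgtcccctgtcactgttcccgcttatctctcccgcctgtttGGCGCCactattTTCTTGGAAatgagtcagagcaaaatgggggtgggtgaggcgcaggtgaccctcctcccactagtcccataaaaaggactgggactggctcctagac
Hamp2: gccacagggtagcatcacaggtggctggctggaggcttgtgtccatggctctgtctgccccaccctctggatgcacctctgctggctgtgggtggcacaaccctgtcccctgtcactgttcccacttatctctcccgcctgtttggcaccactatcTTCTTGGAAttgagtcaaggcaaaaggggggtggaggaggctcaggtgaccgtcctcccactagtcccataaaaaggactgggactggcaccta
The pair were 91.9% identical over the window, compared without gaps at the best offset. TTCTTGGAA stood in both, and in 0.365% of 32851 promoter windows of that length. GGCGCC stood in Hamp, 104 to 109 bases before the start, and in 9.59% of all windows, and was not found in the Hamp2 window. A match of letters is a description of the sequence and no sign of binding in these livers.

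Of 28 measured genes of iron handling, 27 lay higher in null and 1 was called, Hamp, with a list median of 0.74 beside -0.04 for all genes. The median fell to 0.35 without array 3, beside -0.16 for all genes, and 20 of the 28 genes were in the 2 brightest quintiles. Genes that act upstream of hepcidin were not called. Bmp6, its main inducing ligand, read -3.45, -4.93 and -5.54 in wild type against -3.31 and -3.07 in null, a difference of 1.45 ± 0.78. Smad7, a feedback inhibitor of that signal, differed by 0.91 ± 0.4, and Id1, one of its targets, by 0.86 ± 0.77. The iron sensor gene Tfr2 differed by 0.82 ± 0.75, and Tmprss6, whose protease restrains the signal, by 0.56 ± 0.8 (by -0.21 after quantile normalization). The ferritin heavy chain gene Fth1, the exporter gene Slc40a1 and the transferrin receptor gene Tfrc differed by 0.77 ± 0.84, 0.56 ± 0.82 and 0.54 ± 0.62, and by 0.19, 0.0 and 0.05 without array 3, with Slc40a1 at -0.14 after quantile normalization.

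Afp, the fetal albumin homologue, was higher in null liver, and the other fetal transcripts were mixed. It read 1.27, 1.29 and -0.06 in wild type against 2.66 and 3.72 in null, a rise of 2.36 ± 0.79 (limma adjusted p = 0.0475). Without array 3 the difference was 1.91 (adjusted p = 0.196), and without both arrays of low correlation it was the same 1.91 with adjusted p = 0.00232. On the sufficient diet the null arrays were higher still, at 5.55 and 4.8 against 0.59 to 1.3 on the wild-type pool arrays. Igf2, the fetal growth factor, split the null deficient arrays: array 1 read -1.48, inside the wild-type range of -1.64 to -1.21, and array 2 read 0.99 (difference 1.2 ± 0.53, adjusted p = 0.154), while the second Igf2 probe differed by -0.49. Null livers on the sufficient diet had read 3.72 and 3.59 against -2.31 to -1.12 in the wild-type pool, a difference of 5.48 ± 0.72 that was called (adjusted p = 0.0103), in a contrast with 4 calls in all (0.0195%). H19, the imprinted partner of Igf2, gave the same split, with 4.52, 3.89 and 1.54 in wild type against 3.7 and 5.97 in null. The difference of effects for Igf2 was -4.29 ± 0.89 (limma adjusted p = 0.989).

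Of the 22 measured genes of the fetal list, 14 lay higher and 8 lower, with a median of 0.21 that was -0.07 without array 3. In that list 1 was called higher and 2 lower, beside 0.356% and 18.2% of all genes. The 2 lower ones, Igf2bp1 and Lin28b, are RNA-binding proteins of embryonic growth. Both lay in the dimmest quintile, where 51.2% of all genes were called lower, and neither was called after quantile normalization (limma adjusted p = 0.424 and 0.291). Lin28b read -2.39, -5.28 and -1.25 against -7.58 and -7.71, at least 5.51-fold lower (3.03-fold without array 3). These bounds use wild-type means, and Lin28b was well above background on 2 wild-type arrays. Igf2bp1 was not well above background on any of the 5 arrays. Gpc3 and Cdkn1c, an oncofetal proteoglycan gene and a cell cycle inhibitor gene, differed by 1.08 ± 0.56 and 1.16 ± 0.62, neither called.

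**Figure D3:**
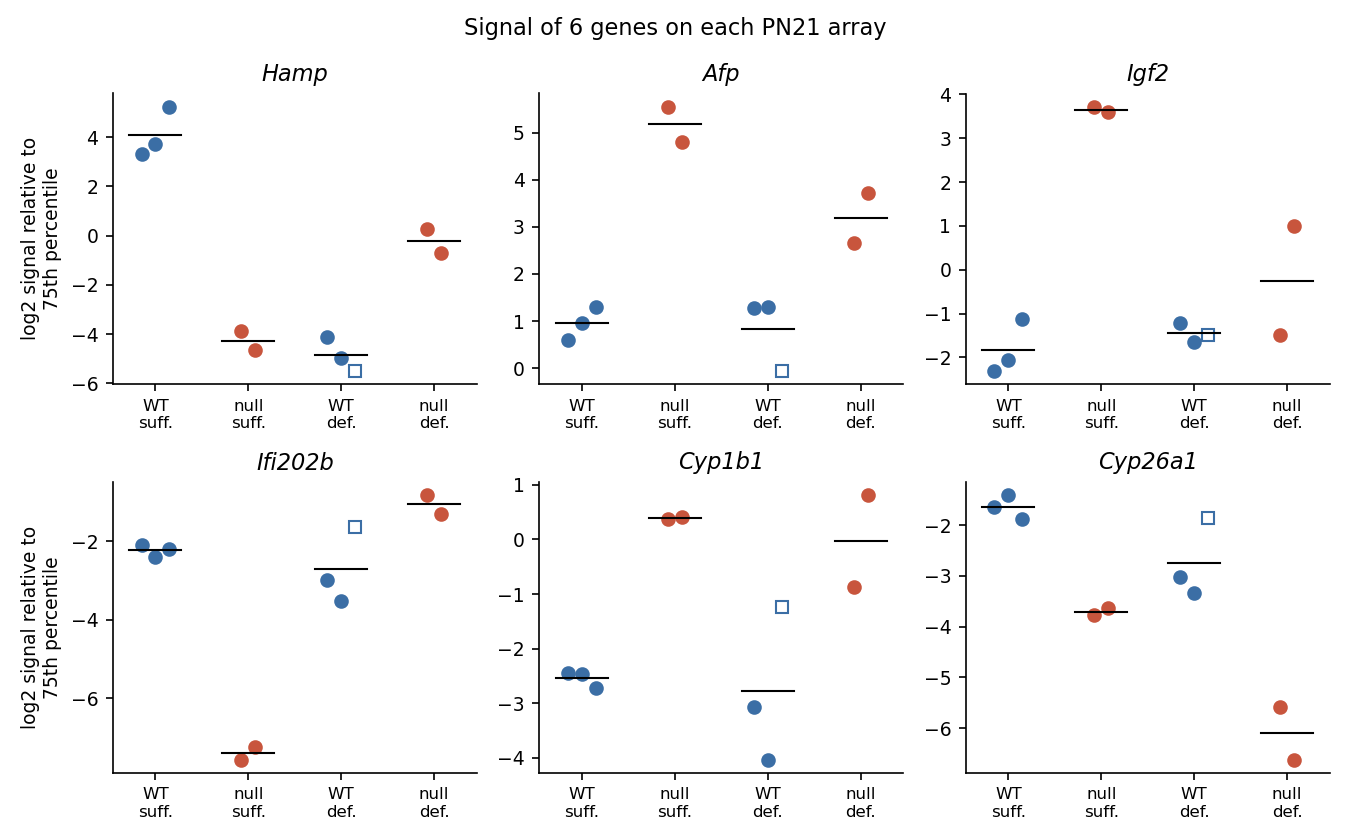
Log2 signal relative to the 75th percentile of the array for 6 genes on the PN21 arrays of wild type (blue) and Cyp1b1-null (red) liver, sufficient (suff.) and deficient (def.) diet. Lines are group means, the open square is wild type deficient array 3, and the 3 wild-type sufficient arrays carry 1 pool. Hamp lies between -5.5 and -3.89 in null sufficient and wild-type deficient liver and higher in the other groups, while Afp is higher in null on both diets.

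No gene of cholesterol synthesis was called between the genotypes on the deficient diet. Of 26 measured genes, 25 lay higher in null, with a median of 0.76 beside -0.04 for all genes and 0.67 for all genes of the brightest quintile. Without array 3 the median was 0.36 and after quantile normalization 0.23. In the sufficient groups 25 of the same 26 genes had differences below 0, with a median of -1.88 beside -0.18 for all genes. Squalene epoxidase, Sqle, gave the widest gap between the diets: 1.98, 2.47 and 0.51 in wild type against 2.83 and 2.89 in null on the deficient diet (difference 1.2 ± 1.13), and 3.16 in the wild-type pool against -2.45 and -1.64 in null on the sufficient diet (-5.21). Srebf2, which encodes the transcription factor that drives the pathway, differed by 0.65 ± 0.68, and by -0.1 after quantile normalization. Hsd17b7, a sterol reductase gene, and Acat2, which makes acetoacetyl-CoA, had the smallest p-values of the list, with differences of 1.51 ± 0.77 and 1.21 ± 0.76 (adjusted p = 0.225 and 0.351).

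The difference between the genotype effects on the 2 diets was above 0 for all 26 of these genes, beside 10341 of all 20533 genes. Its median was 2.52 beside 0.01 for all genes, and 2.18 without both arrays of low correlation. Of the 26, 24 lay in the 2 brightest quintiles, where the median over all genes was 0.517. All 36 ribosomal protein genes were above 0 as well, with a median of 0.57. None of the 26 cholesterol genes was called for that difference. The sufficient side of it rests on 1 wild-type pool. Hmgcs1, an early enzyme of the pathway, read 5.38, 6.24 and 4.1 in wild type against 6.42 and 6.08 in null on the deficient diet, and 6.25 against 4.15 and 4.43 on the sufficient diet. Of the 18 list genes whose promoters were in the RefSeq table, Hmgcs1 was the one that held TCACNCCAC, the letters of a sterol regulatory element (both strands, 250 bases before the start), which stood in 1.05% of all such windows. It lies on the plus strand at chr13:119690101-119690350 and is shown with those letters in capitals.
Hmgcs1: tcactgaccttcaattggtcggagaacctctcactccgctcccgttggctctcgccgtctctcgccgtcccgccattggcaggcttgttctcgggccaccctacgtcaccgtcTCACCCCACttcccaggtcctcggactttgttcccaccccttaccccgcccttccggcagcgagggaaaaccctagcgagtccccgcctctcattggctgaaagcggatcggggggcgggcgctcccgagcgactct

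Genes of fatty acid synthesis gave a similar picture. Of 35 measured lipogenic genes 24 lay higher in null, 1 was called lower and none higher, with a median of 0.28, which was -0.01 without array 3 and -0.02 after quantile normalization. In the sufficient groups 29 of the 35 had lain lower, with a median of -1.18. Fatty acid synthase, Fasn, read 6.72, 7.44 and 6.51 in wild type against 6.72 and 7.06 in null on the deficient diet, a difference of 0.0 ± 1.29, and 9 against 5.43 and 5.53 on the sufficient diet. Elovl6, which elongates palmitate, read 1.56, 2.09 and 1.98 against 1.35 and 1.91, and 4.89 against 0.03 and -0.01 on the sufficient diet. In Fasn and Elovl6 wild-type values were lower on the deficient than on the sufficient diet and null values higher, and the ranges of the genotypes overlapped on the deficient diet. The stearoyl-CoA desaturase gene Scd1 differed by 0.18 ± 1.49 (by -0.52 after quantile normalization), while R-Cyp1b1-null deficient livers, set against the same wild-type arrays, were higher by 3.52. Srebf1, the lipogenic transcription factor gene, read 6.76, 7.11 and 5.97 against 6.3 and 6.81, a difference of -0.06 ± 0.84.

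The called member was Pnpla3, a lipid droplet lipase gene that follows SREBP-1c and insulin. It read -0.25, -0.35 and 0.88 in wild type against -2.66 and -2.26 in null, a fall of 2.56 on the log2 scale (SE 0.63, limma adjusted p = 0.00828), and of 2.16 without array 3 (adjusted p = 0.0438). It differed by -4.22 on the sufficient diet, and after quantile normalization by -2.43 (adjusted p = 0.0589). Pnpla3 was well above background on all 5 arrays, and the groups did not overlap.

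**Figure D4:**
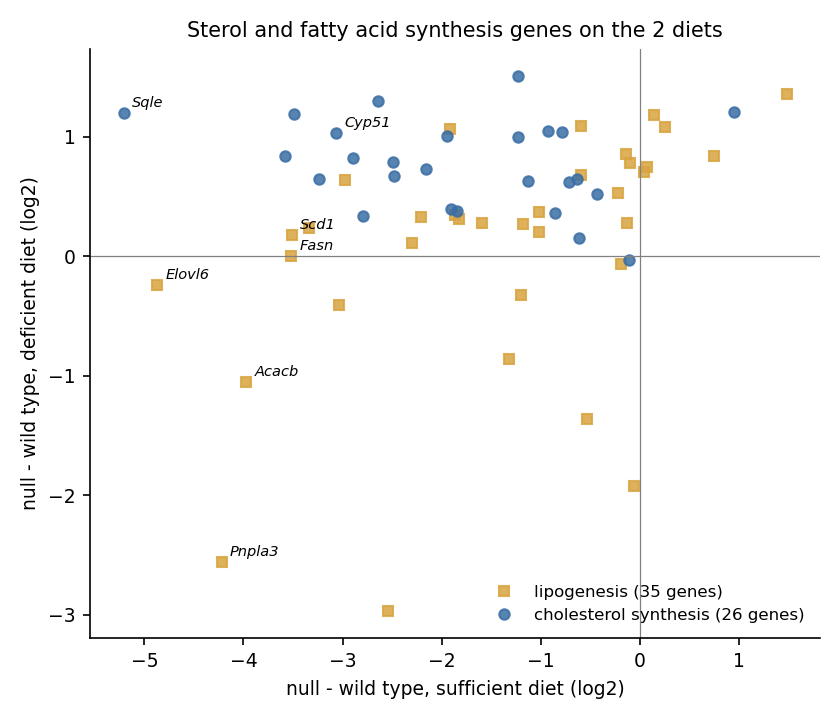
Difference between Cyp1b1-null and wild type (log2) on the sufficient diet (horizontal) and on the deficient diet (vertical), one mark for each gene of cholesterol synthesis (blue circles, 26 genes) and lipogenesis (ochre squares, 35 genes). Of the 26 cholesterol genes 25 lie left of 0 on the sufficient diet and 25 lie above 0 on the deficient diet.

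Retinoid handling was examined because both the diet and the deleted enzyme act on vitamin A. Of 33 measured genes none was called higher and 3 were called lower, a smaller share than the 18.2% of all genes, with a median of 0.53 (0.08 without array 3). Cyp26a1, the retinoic acid hydroxylase that retinoic acid induces, read -3.02, -3.34 and -1.85 in wild type, well above background on 2 arrays, and was not well above background in null (-5.58 and -6.62). It was at least 6.49-fold lower in null, with a difference of -3.37 ± 0.65 (limma adjusted p = 0.00132, and 0.00796 without array 3), but of -0.73 after quantile normalization (adjusted p = 0.715). Sufficient wild-type livers averaged -1.64 and null livers -3.71, each above its own deficient mean of -2.73 and -6.1. Crabp1, a cytosolic retinoic acid-binding protein gene, was at least 12.8-fold lower in null and was called after quantile normalization too (adjusted p = 0.0214). Rarg, the third called gene, encodes a retinoic acid receptor and read -1.48, -2.36 and 0.1 against -4.75 and -4.92. Of the 3, Rarg was the one well above background on all 5 arrays.

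The other genes of the pathway that are named here were not called. The plasma retinol carrier gene Rbp4 read 10.1, 10.44 and 8.8 against 9.92 and 9.57 (difference -0.04 ± 0.76, and 0.29 without array 2). Lrat, which esterifies retinol for storage in stellate cells, lay higher in null without overlap with its brighter probe, at -0.67, -0.75 and -1.03 against 0.4 and 0.12. It was not called (1.08 ± 0.47, limma adjusted p = 0.138). The second Lrat probe overlapped between the groups, at -1.06, -1.02 and -0.55 against -0.94 and -1.02 (difference -0.1). Rarb, a receptor gene that retinoic acid induces, read -0.31, -0.04 and -0.27 against 0.16 and 0.37 with its brighter probe (0.47 ± 0.38) and the other way, by -2.05, with its second probe.

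Ifi202b was the 1 gene of 20533 (0.00487%) called for a difference between the genotype effects on the 2 diets. It belongs to the interferon-inducible p200 family of DNA-binding proteins. On the deficient diet it read -2.98, -3.51 and -1.64 in wild type against -0.82 and -1.29 in null, a rise of 1.65 ± 0.52 (limma adjusted p = 0.0351). On the sufficient diet the wild-type pool read -2.08, -2.4 and -2.2 while neither null array was well above background (-7.57 and -7.26). The difference of effects was 6.84 ± 0.87 (adjusted p = 0.0152). The call for the difference of effects was lost when wild type deficient array 1, null deficient array 1 or either null sufficient array was left out (adjusted p = 0.0642 to 0.165), and after quantile normalization (6.48, adjusted p = 0.201). The rise on the deficient diet was not called when any 1 of the arrays other than array 3 was left out (adjusted p = 0.101 to 0.252). R-Cyp1b1-null arrays read between -1.23 and -0.38 on both diets. The null deficient arrays lay close to the R-Cyp1b1-null arrays and apart from the null sufficient ones. Ren2, a renin gene copy that only some mouse strains carry, differed by -0.01 ± 0.63 between the deficient genotypes, both with a mean of -4.77, but by 0.37 without array 3 and 2.25 after quantile normalization. Its probe was well above background on both null deficient arrays and on no wild-type deficient array, so the wild-type mean is a bound. The wild-type sufficient pool averaged -0.04 with that probe and R-Cyp1b1-null deficient livers -0.95. Which renin gene copy the probe read in these strains was not tested. Ren2 was not called for the difference of effects (4.41 ± 1.06, adjusted p = 0.989).

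The interferon response list did not follow Ifi202b. Of 32 measured genes 17 lay higher and 15 lower, with a median of 0.14 and of -0.37 without array 3. Its 1 call was Mx1, an antiviral GTPase gene, which read -2.27, -3 and -1.49 in wild type against -4.7 and -5.53 in null (difference -2.86 ± 0.89, limma adjusted p = 0.0327, and 0.133 without array 3).

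Metabolic gene groups of the hepatocyte lay higher in null as whole lists, with few or no calls, and close to the other bright genes. All 35 genes of oxidative phosphorylation lay higher with a median of 0.87, which was 0.33 without array 3, and all 36 ribosomal protein genes with a median of 0.66, which was 0.12, while after quantile normalization 27 of the 35 and 19 of the 36 lay higher. Genes of amino acid and one-carbon metabolism had the highest list median, at 1.07 (0.42 without array 3), with 30 of 31 higher and none called. In that list Phgdh, the entry enzyme of serine synthesis, was the exception, at 0.09, 0.0 and 1.15 in wild type against -1.26 and -0.63 in null (difference -1.36 ± 0.51, limma adjusted p = 0.0819). Bhmt, which remethylates homocysteine, read 7.48, 7.05 and 4.21 against 8.41 and 8.35, so the difference of 2.13 ± 1.08 became 1.11 without array 3. Fatty acid oxidation (median 0.92, 28 of 30 higher), bile acid genes (0.79, 24 of 26) and complement and coagulation (0.64, 28 of 33) showed the same form. The cytochrome c oxidase subunit gene Cox7c came closest to a call, at 0.71, 0.17 and -0.42 against 1.82 and 1.44 (1.48 ± 0.52, adjusted p = 0.0585).

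Among 39 measured genes of xenobiotic metabolism, in which Cyp1b1 is counted, 2 were called higher and 3 lower, beside 0.356% and 18.2% of all genes. After quantile normalization none of the 3 lower genes was called. Cyp2c54, a P450 of arachidonic and linoleic acid epoxidation, was the second higher one, at -0.51, -0.51 and -2.14 in wild type against 1.42 and 0.28 in null (difference 1.9 ± 0.61, limma adjusted p = 0.0397), and 1.36 without array 3 (adjusted p = 0.192). The lower ones were Ahrr and Cyp1a1, both targets of the aryl hydrocarbon receptor, and Cyp2c38. Ahrr, the repressor of that receptor, read -1.95, -2.49 and -0.47 against -4.9 and -5.49, and Cyp1a1 read -3.42, -2.97 and -3.51 against -5.03 and -6.87, a difference of -2.65 ± 0.87 that became 0.13 after quantile normalization. Tiparp and Cyp1a2, also targets of the receptor, differed by 1.54 ± 0.57 and 1.71 ± 1.16, neither called. In the bile acid list the called gene was Slco1a1, a male-predominant organic anion uptake carrier, which read -4.38, -3.27 and -1.22 in wild type against -6.53 and -7.56 in null. It was well above background on array 3 alone among the 5 arrays. The wild-type mean, which also holds the arrays not well above background, was at least 5.56-fold above null, and there is no bound without array 3. After quantile normalization Slco1a1 differed by -1.43 (limma adjusted p = 0.472). It was also the 1 call among 30 measured sex-dimorphic genes of adult liver, of which 21 lay higher (median 0.67). Cyp7a1, the rate-limiting enzyme of bile acid synthesis, read 2.46, 1.89 and -0.53 against 2.24 and 2.8.

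The oxidative stress and circadian lists held 2 lower calls each, of 24 and 20 genes, beside 18.2% of all genes. Slc7a11, the cystine importer gene of the NRF2 response, was at least 16.6-fold lower in null, or 10.1-fold without array 3 (-1.57, -2.62 and 0.04 against -7.56 and -7.69, limma adjusted p = 0.000168) and was called after quantile normalization too (adjusted p = 0.0419). Gpx2, an epithelial glutathione peroxidase gene, fell from -0.5, -1.48 and 0.57 to -3.15 and -3.5. Bhlhe41, a repressor of the circadian clock, and Npas2, a partner of BMAL1 in it, differed by -3.32 ± 0.89 and -2.77 ± 0.9 and were not called without array 3 (adjusted p = 0.0777 and 0.206). The clock list of 20 genes split into 9 higher and 11 lower, with a median of -0.04 that was 0.23 after quantile normalization. Of 34 cell cycle genes 27 lay higher (median 0.67), and the lower call was Kif2c, a mitotic kinesin gene, which read -1.45, -2.08 and 0.05 against -4.79 and -3.69. In the growth hormone and IGF axis, with 17 of 23 genes higher (median 0.66), the 1 call was Igfbp6, which encodes a binding protein of IGF-II, with a difference of -1.61 ± 0.53 (limma adjusted p = 0.0427), which was not called without array 3 (-1.29, adjusted p = 0.179) or after quantile normalization (adjusted p = 0.252).

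The remaining lists had no call in either direction: acute phase, gluconeogenesis and glycogen, heat shock and immediate early genes, unfolded protein response, and lipoprotein secretion.

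Markers of other cells were read because a liver piece can hold blood, bile duct and adjoining tissue. Of 16 neutrophil markers, 13 lay lower in null and 5 were called lower, beside 18.2% of all genes, with a median of -1.39 beside -0.04 for all genes, of -1.45 without array 3, and of -0.39 after quantile normalization, where 9 of the 16 lay lower. The 5 lower calls became 2 without array 3 and 0 after quantile normalization. In the sufficient groups 11 of the 16 had lain higher, with a median of 0.55. Cxcr2, the chemokine receptor of neutrophils, read -0.63, -2.07 and 1.14 in wild type against -4.62 and -5.01 in null (difference -4.3 ± 0.97, limma adjusted p = 0.00406), and the gelatinase gene Mmp9 -1.77, -2.31 and -0.5 against -5.01 and -4.82. The granule gene Ngp was a bright one among the calls, at -0.1, -0.89 and 1.2 against -3.88 and -2.71 (difference -3.37 ± 0.92, adjusted p = 0.0159, and 0.0816 without array 3). The summed level of the 16 markers was 3.82, 3.72 and 3.62 (log2) in wild type against 2.47 and 3.32 in null. S100a9, a subunit of the abundant granulocyte protein calprotectin, read 2.97, 3.03 and 1.39 against 1.85 and 2.75 and was not called. In bulk liver fewer cells of a type and less RNA per cell cannot be told apart.

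Of 11 cholangiocyte markers 9 lay lower and 5 were called lower, among them Cftr, Ggt1, Cldn4 and Epcam, with a median of -1.21 and of -1.22 after quantile normalization. The 5 calls became 4 without array 3 and 2 after quantile normalization. Cftr, the chloride channel gene of bile duct epithelium, was at least 32.8-fold lower in null with 75th-percentile scaling (21.2-fold without array 3). Its difference of -5.53 became -4.38 after quantile normalization, where it was called too (limma adjusted p = 0.0288). The summed level of the 10 markers present on all arrays was 2.97, 3.03 and 3.57 in wild type against 3.24 and 3.1 in null, and all 5 called genes lay in the 2 dimmest quintiles, where 51.2% and 31.4% of all genes were called lower. All 20 skeletal muscle markers lay lower with 75th-percentile scaling, with a median of -2.16, while 7 of them lay higher after quantile normalization (median -0.63). Of the 20, 3 were called lower, no larger a share than the 18.2% of all genes, and 1 without array 3. Their summed level was 2.96, 2.73 and 3.75 in wild type against 1.87 and 1.75 in null, and 1.92 and 1.62 in null on the sufficient diet. Erythroid and exocrine pancreas markers had 4 lower calls each among 18 and 22 genes, near the 18.2% of all genes, which became 1 and 2 without array 3 and 0 in both after quantile normalization. Their medians were -0.82 and -1.07, and 0.03 and 0.11 after quantile normalization. The summed erythroid level overlapped between the groups, at 9.49, 9.99 and 8.54 against 9.98 and 9.96. Lymphocyte markers lay lower in 17 of 19 with 1 call, Il7r, which differed by 0.17 after quantile normalization. Adipocyte markers had 3 lower calls among 10 (median -1.32), Adipoq, Slc7a10 and Lep, of which 2 were kept without array 3 and 0 after quantile normalization, where Lep differed by 0.4. Extracellular matrix genes lay higher in 22 of 31, with Mmp13 and Vcan called lower, and Vcan was not called without array 3 (adjusted p = 0.0822) or after quantile normalization (adjusted p = 0.549 by limma). Macrophage, endothelial and stellate cell markers lay higher in 15 of 16, 14 of 17 and 16 of 18 and had no calls, and the macrophage median of 0.56 was -0.01 without array 3. The part of other cells in the differences above was not tested.

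**Figure D5:**
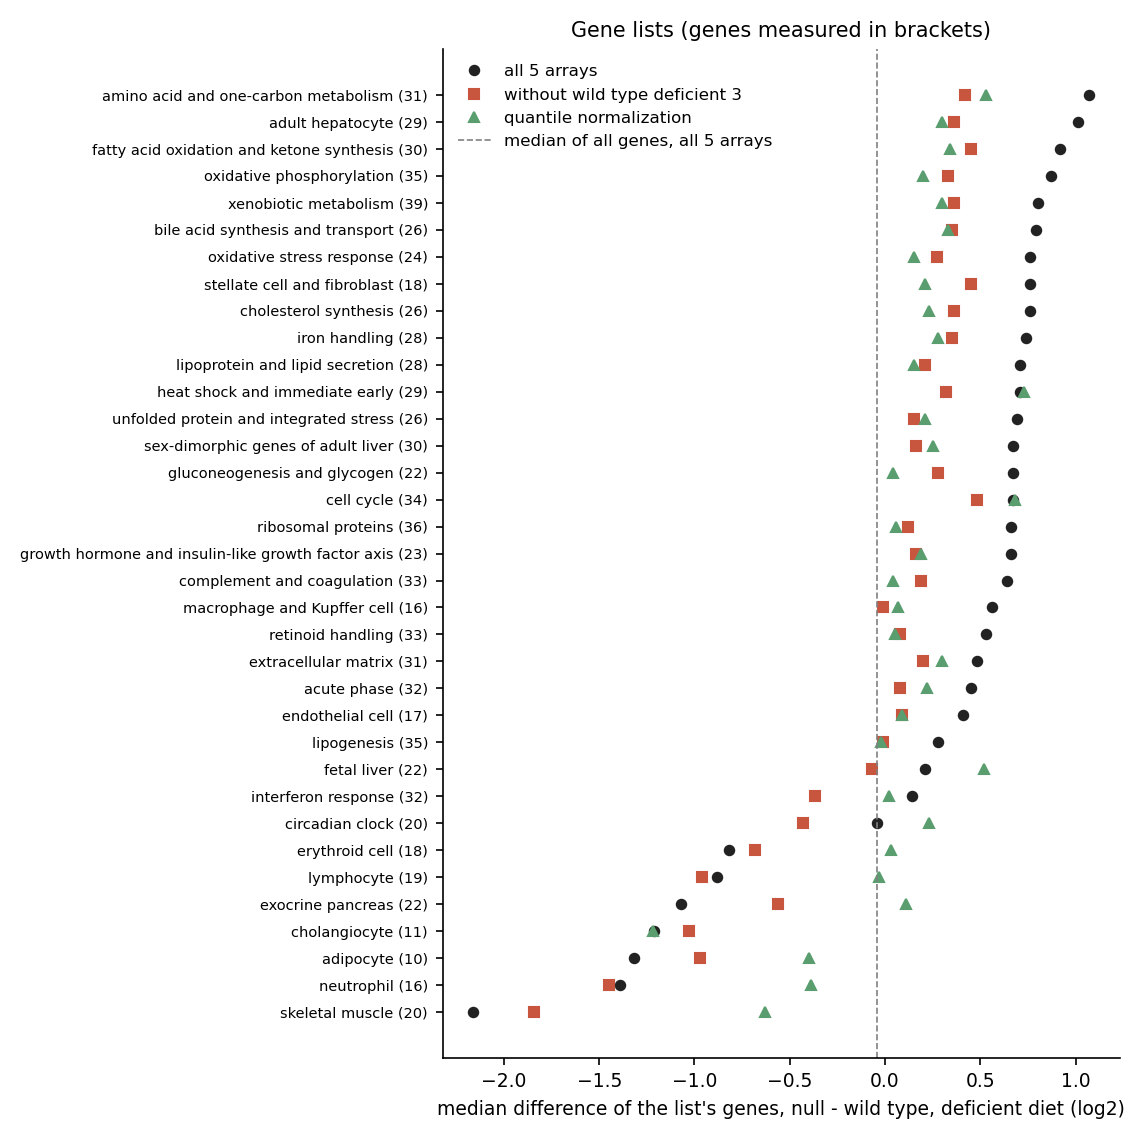
Median difference (null minus wild type on the deficient diet, log2) of the genes of each list, with all 5 arrays (black circles), without wild type deficient array 3 (red squares) and after quantile normalization (green triangles). The dashed line is the median of all genes with all 5 arrays, -0.04. Most lists of hepatocyte genes sit right of that line with all arrays and lie closer to 0 in the other settings.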

How the data were processed

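Liver RNA was measured on 24 one-colour Agilent arrays, 5 of which entered the comparison described. Per the file headers, the authors scanned the arrays and extracted them with Agilent Feature Extraction 10.7.3.1; the deposited intensity is its background-subtracted, processed signal, on a linear scale. The deposited series table held the same values within a relative difference of 0.00497 and served as an alternative. The submitters' processing notes also name limma. Versions and settings beyond these, and the genome build used for naming, are not given in the sources used here.

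Log2 of the intensity was taken and the 75th percentile of each array subtracted. Control spots and 2048 outlier spots were dropped, and repeated spots averaged. A probe was kept if some group had it well above background on all its arrays (30920 of 41174), and the brightest stood for its gene. Names were updated through RefSeq (GRCm38.p6) for 27816 probes by accession, 5503 by symbol and 380 by synonym, and 7475 kept the name in the file. For 310 genes wild type deficient array 3 had no value and the fit used the other arrays.

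limma 3.58.1 (R 4.3.3) was fitted to 20533 genes, 22 samples and 10 groups, with the 3 arrays of the sufficient wild-type pool averaged, empirical Bayes moderation (12 residual and 3.95 prior degrees of freedom) and Benjamini-Hochberg adjustment at 0.05. The fit was tested on simulated data. The number of arrays limits the precision. Alternatives changed the scaling, background correction, filter, probe rule, samples and blocks. Named genes were a set of retinoid, lipid, iron and fetal genes, the 8 largest called rises and falls with a symbol and no overlap, up to 2 called members of each list in each direction (or the 2 with the smallest p), and up to 4 by the genotype-by-diet difference; others are said to be picked after their values were seen, or come from the lists. The members, lists and rules were chosen with earlier results of these data known. Some genes under these rules are not reported here. Promoters came from the RefSeq table.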

Additional observations from a re-analysis of the deposited data

Results flagged for a closer look

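Ifi202b, an interferon-inducible p200 family gene, stood out because its genotype effect differed between the diets, and that difference was tested as an interaction term. Null minus wild type was 1.65 on the deficient diet and -5.19 on the sufficient diet, a difference of 6.84 ± 0.87 (log2, limma adjusted p = 0.0152). It was 7.38 without both arrays of low correlation (adjusted p = 0.00057). Over all the alternatives in which it could be tested it stayed above 0, with a range of 2.01 to 7.38. It was not called with PN21 groups only, after quantile normalization, or with normexp and quantile normalization, where it was 2.01. The rise on the deficient diet was not called with PN21 groups only (limma adjusted p = 0.0858), only the 2 groups compared (0.136), or normexp and quantile normalization (0.173).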

How the results depend on the processing

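The count of genes called between the genotypes on the deficient diet, 3811, became 13625 with array weights, 1103 after quantile normalization, 0 with normexp and quantile normalization (2414 at an unadjusted p under 0.05, by limma), 9742 with no filter on dim probes, and 0 when the 2 brightest quintiles alone were tested (325 unadjusted). Leaving out 1 array gave 2091 to 4182. Deviations of same-numbered arrays from their group means correlated at r = 0.026. With 2 shared numbers that value cannot tell whether the replicate numbers pair the samples. The replicate block gave 3592 calls. The count for the difference between diets, 1, became 1324 with array weights and 0 after quantile normalization, with normexp, with PN21 groups only and in the 2 brightest quintiles. It was 0 to 2 when 1 array was left out, including either null sufficient array. The alternatives with the brightest quintiles and without the null sufficient arrays were chosen after seeing the data.

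Directions turned as follows, in log2. After quantile normalization Srebf2 was -0.10, Scd1 -0.52, Il7r 0.17, Lep 0.40 and Ren2 2.25. The same without both arrays of low correlation gave Srebf2 -0.01, Scd1 -0.32, Acot2 0.27, C1qa -0.04, Lep 0.00 and Ren2 2.30. With normexp, Scd1 was -0.55, Igf2bp1 0.06, Il7r 0.04, Lep 0.04 and Ren2 0.46. With the mean of a gene's probes, Cyp1b1 was -0.18, Rarb -0.79, Insr -0.12, Rps6 -0.84 and Hgf -0.28. With array weights, Rps14 was -0.02, Tie1 -0.06 and Ren2 0.06. With the replicate block, Scd1 was -0.43. Without both arrays of low correlation, Scd1 was -0.07 and Ren2 0.37. With 1 array left out, Rbp4 ranged from -0.53 to 0.29, Srebf1 from -0.38 to 0.20, Scd1 from -0.38 to 0.75, Igf2 from -0.04 to 2.43 and Ren2 from -0.35 to 0.37. The cause of these changes was not tested. Signal over background limits the dim genes, for which null signals are often bounds.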
